A study of Homo sapiens with 8 samples.

Results

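The 10 genes described here encode the core of NF-kappaB signaling: the DNA-binding subunits NFKB1, NFKB2, REL, RELA and RELB, the inhibitors NFKBIA, NFKBIE and TNFAIP3, and the ubiquitin ligase component pair BIRC3 and TRAF3. They were chosen by symbol, with earlier results of these data known, and all 10 were found among the 58219 genes listed for every library. All 10 also passed the filter on low counts and stand among the 13129 protein-coding genes tested. The RNA came from 2 established multiple myeloma (MM) cell lines with the t(4;14) translocation, H929 and KMS11. Cells had received ethanol, the solvent, or fluvastatin at 2 µM, in both cases for 24 h. Each of the 4 groups of line and treatment had 2 replicates. Fluvastatin inhibits HMG-CoA reductase, the rate-limiting enzyme of the mevalonate pathway. The sources used here give no copy number or mutation state of the NF-kappaB genes in either line, and gene-level counts do not show which exons are present.

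NF-kappaB proteins act as dimers of subunits that share a Rel homology domain. In the canonical branch, IkB inhibitors such as NFKBIA hold dimers of RELA or REL in the cytoplasm until IkB kinase marks the inhibitor for degradation. In the non-canonical branch, a complex of TRAF3, TRAF2 and the BIRC2 or BIRC3 ligases keeps the kinase MAP3K14 (NIK) low, and accumulation of that kinase leads to processing of the NFKB2 precursor and to dimers of its product with RELB. Several of the genes, among them NFKBIA, TNFAIP3, BIRC3, NFKB2 and RELB, are themselves well-known targets of NF-kappaB, and survival of normal plasma cells and of many MM cells depends on the pathway.

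Total counts per library ranged from 26702515 to 41910446. All 8 plasma cell markers examined reached a mean TPM of at least 1 in H929 and 7 of 8 in KMS11, where CD38 lay between 0.01 and 0.04 TPM. TPM, RSEM's transcript abundance, is a level per unit of transcript length, relative to all genes of the library. The t(4;14) targets FGFR3 and NSD2 were present in all libraries, and summed B cell markers did not exceed 0.09 TPM. The trend of counts with GC content set 1 library apart: KMS11 fluvastatin replicate 1 had a difference of 0.155 (log2) between GC-rich and GC-poor genes, against -0.659 to -0.508 in the other KMS11 libraries and 0.057 to 0.721 in H929. Members differ in GC content, from 35.8% for BIRC3 and 36% for NFKB1 to 62.4% for NFKB2 and 64.9% for RELB, with NFKBIE at 61%, so results of the members are also given with this trend removed where a call changed.

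The promoter sequences are shown because several of the genes are themselves known targets of the pathway. The 250 bases before each RefSeq transcription start (build GRCh38.p14) were searched on both strands for the kappaB consensus, which reads GGG, a purine, any base, A or T, a pair of pyrimidines and CC. Windows were given for 8 of the 10 genes, and a match was found in 7 of them, in all but RELA. Of all 27305 genes with a window, 6.28% held a match. The genes shown are the 5 with a window that passed the test for a response to fluvastatin, and NFKB2 at its start 2. Matches are in capitals and the other bases in lower case, read 5′ to 3′ on the strand of the gene.
BIRC3: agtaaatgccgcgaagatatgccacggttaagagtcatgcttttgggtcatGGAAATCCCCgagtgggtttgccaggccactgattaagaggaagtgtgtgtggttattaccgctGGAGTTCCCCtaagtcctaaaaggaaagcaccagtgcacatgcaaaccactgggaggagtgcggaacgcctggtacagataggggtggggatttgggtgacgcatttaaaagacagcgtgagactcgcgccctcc
TNFAIP3: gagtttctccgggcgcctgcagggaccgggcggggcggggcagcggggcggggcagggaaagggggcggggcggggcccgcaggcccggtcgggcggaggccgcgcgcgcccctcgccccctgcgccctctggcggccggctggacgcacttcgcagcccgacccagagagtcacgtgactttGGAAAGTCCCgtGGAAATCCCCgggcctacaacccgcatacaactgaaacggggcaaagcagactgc
NFKBIA: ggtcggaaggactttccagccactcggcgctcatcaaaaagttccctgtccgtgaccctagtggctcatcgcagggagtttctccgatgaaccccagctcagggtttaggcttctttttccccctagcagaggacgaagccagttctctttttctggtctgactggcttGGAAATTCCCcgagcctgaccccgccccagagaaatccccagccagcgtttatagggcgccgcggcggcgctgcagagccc
REL: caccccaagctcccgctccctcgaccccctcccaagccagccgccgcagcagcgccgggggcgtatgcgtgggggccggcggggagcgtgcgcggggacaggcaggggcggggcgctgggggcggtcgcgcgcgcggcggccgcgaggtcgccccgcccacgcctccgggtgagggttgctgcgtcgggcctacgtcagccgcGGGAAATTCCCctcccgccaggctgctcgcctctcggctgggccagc
TRAF3: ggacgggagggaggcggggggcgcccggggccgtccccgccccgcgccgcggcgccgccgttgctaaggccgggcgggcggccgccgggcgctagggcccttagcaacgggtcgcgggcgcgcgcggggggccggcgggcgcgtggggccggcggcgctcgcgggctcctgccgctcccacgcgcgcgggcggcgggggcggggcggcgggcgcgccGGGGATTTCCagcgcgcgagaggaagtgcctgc
NFKB2: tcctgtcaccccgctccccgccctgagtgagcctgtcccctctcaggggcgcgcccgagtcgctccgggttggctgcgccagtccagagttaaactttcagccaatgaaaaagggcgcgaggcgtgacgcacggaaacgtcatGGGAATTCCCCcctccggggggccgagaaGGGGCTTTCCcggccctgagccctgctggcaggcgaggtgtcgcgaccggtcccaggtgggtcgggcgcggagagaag

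The BIRC3 window (plus strand, chr11:102317234-102317483) held 2 separate matches, 199 to 190 and 135 to 126 bases before the start. TNFAIP3 (plus strand, chr6:137867009-137867258) also held 2, at 67 to 58 and 55 to 46 bases, which stand almost side by side. NFKBIA (minus strand, chr14:35404750-35404999) and TRAF3 (plus strand, chr14:102777199-102777448) had 1 each, 81 to 72 and 33 to 24 bases before the start. In the first stretch of NFKB2 (plus strand, chr10:102394328-102394577), GGGAATTCCC is palindromic, so that both strands match over the same bases. The stretch of REL (plus strand, chr2:60881324-60881573) is not a palindrome, and the matches on its 2 strands overlap, offset by 1 base. The sites GGGAATTTCC of NFKB1, 49 to 40 bases before its start 1, and GGGACTTTCC of NFKB2, 21 to 12 bases before its start 3, are further matches. BIRC3 and TNFAIP3 share the site GGAAATCCCC exactly. A match describes letters only, and binding was not measured.

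**Figure D1:**
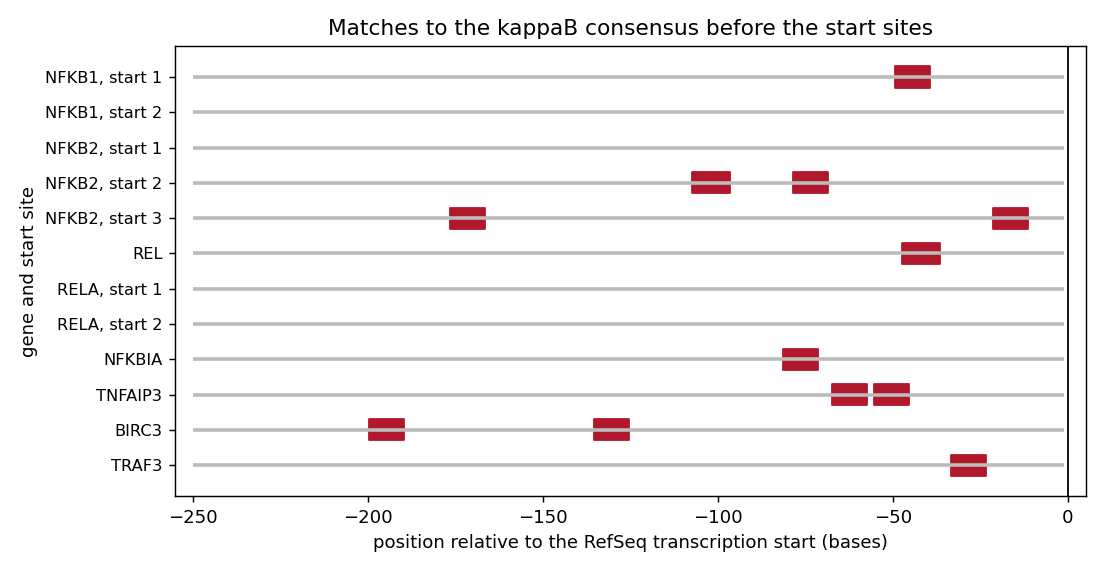
Position of each match to the kappaB consensus (red) along the 250 bases before the RefSeq transcription start (x axis, bases relative to the start at 0), with 1 row for each gene and start site. The 8 windows with a match include those of NFKB2 starts 2 and 3, TNFAIP3 and BIRC3, each with 2 separate stretches.

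Without drug, the lines differed in the composition of their subunit transcripts. RELA, the main activating subunit of the canonical branch (chr11:65653599-65663090, minus strand), was the most abundant subunit in H929 ethanol, at 12.5 and 9.73 TPM, and NFKB2 (chr10:102394110-102402524, plus strand), which encodes the non-canonical precursor, was the most abundant in KMS11 ethanol, at 50.8 and 47.1 TPM. NFKB2 thus made up 24.3% and 18.8% of the summed TPM of the 5 subunits in the H929 ethanol libraries and 51.9% and 53.7% in those of KMS11. RELA made up 35.7% and 33.9% of the sum in H929 and 8.77% and 9.26% in KMS11. The sum itself was 35.0 and 28.7 TPM in H929 and 97.8 and 87.8 TPM in KMS11.

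RELB, the partner of processed NFKB2 (chr19:45001461-45038192, plus strand), stood at 1.89 and 1.12 TPM in H929 ethanol and at 9.02 and 8.12 TPM in KMS11 ethanol. NFKB1 (chr4:102501330-102617302, plus strand), which encodes the p105 precursor of p50, stood at 8.2 and 8.59 TPM in H929 and at 25.7 and 21.2 TPM in KMS11. These groups did not overlap. REL, the lymphoid subunit c-Rel (chr2:60881491-60931612, plus strand), was close in TPM, at 3.9 and 3.86 in H929 ethanol and 3.77 and 3.17 in KMS11 ethanol. As a ratio of TPM within a library, RELB to RELA was 0.151 and 0.115 in H929 ethanol and 1.05 and 0.999 in KMS11 ethanol.

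**Figure D2:**
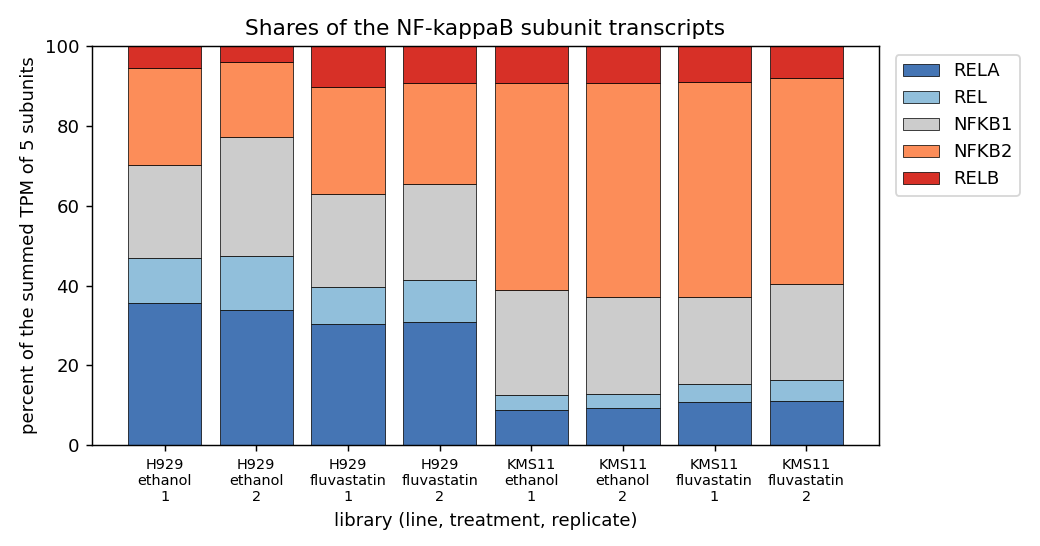
Share of each of the 5 subunits in their summed TPM (y axis, percent), with 1 bar for each library. NFKB2 takes 51.6% to 53.7% in the 4 KMS11 libraries and 18.8% to 26.9% in the 4 H929 libraries, and RELA takes 8.77% to 11.2% and 30.3% to 35.7%.

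The inhibitors were all more abundant in KMS11. TNFAIP3 (A20, chr6:137867214-137883314, plus strand), a ubiquitin-editing enzyme that shuts off canonical signaling, stood at 1.0 and 0.97 TPM in H929 ethanol and at 19.5 and 20.4 TPM in KMS11 ethanol. NFKBIE (IkB epsilon, chr6:44258166-44265788, minus strand) stood at 2.02 and 1.36 TPM against 20.9 and 18.5 TPM. By scaled counts its gap was 5.67-fold, less than in TPM. RSEM assigned NFKBIE an effective length of 1154 and 1064 bases in H929 ethanol and 755 and 812.6 bases in KMS11 ethanol. NFKBIA (IkB alpha, chr14:35401079-35404749, minus strand) stood at 10.4 and 8.84 TPM against 31.1 and 30.8 TPM. In each case both KMS11 libraries lay above both H929 libraries. TNFAIP3 overlaps the antisense gene WAKMAR2, which had 22 and 25 counts in H929 ethanol and 161 and 216 in KMS11 ethanol, beside 250 and 168 and 3330 and 3368 counts for TNFAIP3, and the strand setting of the counting is not given in the sources used here. Since the libraries come from bulk RNA, fewer cells with a transcript and less of it per cell cannot be told apart.

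BIRC3 (cIAP2, chr11:102317484-102339403, plus strand) showed the widest gap of the 10 genes. It had 63 and 54 counts in the H929 ethanol libraries, or 0.28 and 0.23 TPM, and 24296 and 21530 counts in those of KMS11, or 96.1 and 82.8 TPM. BIRC3 was thus the lowest of the 10 genes in H929 and the highest in KMS11. Its paralog BIRC2 (cIAP1), which acts in the same complex, stood at 9.75 and 10.6 TPM against 14.8 and 11.7 TPM. In counts scaled to library size (CPM), BIRC2 overlapped, at 71.4 and 77.3 in H929 ethanol and 73.3 and 63.3 in KMS11 ethanol. TPM ran higher in KMS11 over all genes tested, with a median difference of 0.315 on log2(TPM + 1). The ratio of BIRC3 to BIRC2 in TPM was 0.0287 and 0.0217 in H929 ethanol and 6.52 and 7.1 in KMS11 ethanol. TRAF3, the adaptor that brings the kinase MAP3K14 to the ligase (chr14:102777449-102911500, plus strand), stood at 3.72 and 3.92 TPM in H929 and 10.3 in both KMS11 libraries. MAP3K14 stood at 0.81 and 0.68 TPM in H929 ethanol and at 3.05 and 2.88 TPM in KMS11 ethanol.

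By mean TPM, the order in H929 ethanol was RELA, NFKBIA, NFKB1, NFKB2, REL, TRAF3, NFKBIE, RELB, TNFAIP3 and BIRC3. The neighbors RELA and NFKBIA, NFKB1 and NFKB2, REL and TRAF3, and NFKBIE and RELB overlapped between replicates there. In KMS11 ethanol the order was BIRC3, NFKB2, NFKBIA, NFKB1, TNFAIP3, NFKBIE, TRAF3, RELB, RELA and REL, with overlap between TNFAIP3 and NFKBIE and between RELB and RELA.

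**Figure D3:**
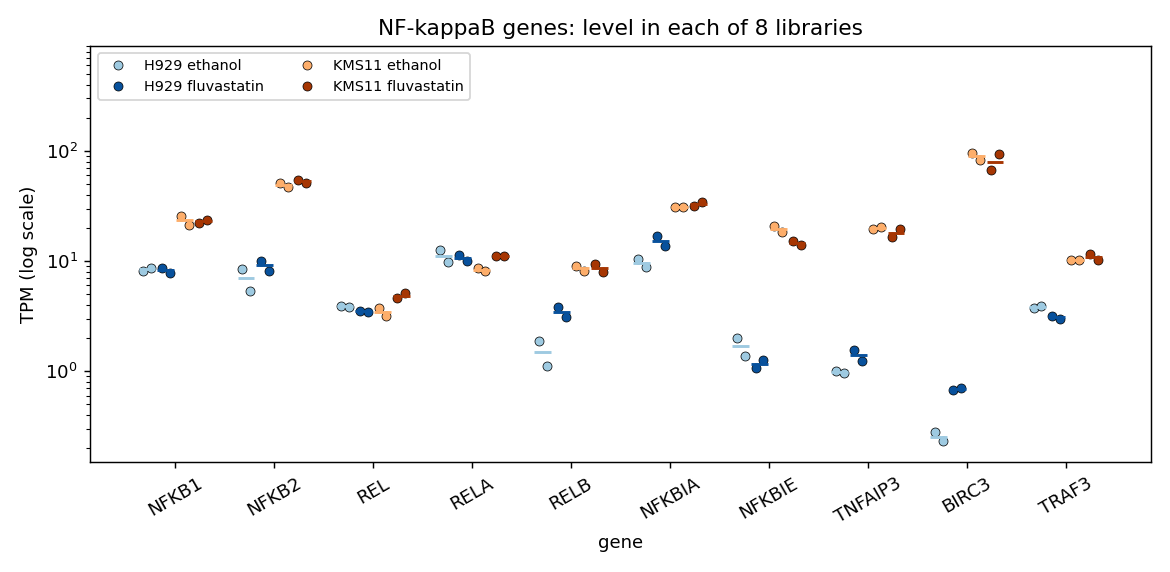
Level of each of the 10 genes (y axis, TPM, log scale) in the 8 libraries, colored by line and treatment, with a bar at the mean of each group of 2. BIRC3 spans from 0.23 TPM in an H929 ethanol library to 96.1 TPM in a KMS11 ethanol library, whereas REL stays between 3.17 and 5.08 TPM in all 8.

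The test was edgeR's quasi-likelihood F test on counts, p values were adjusted by Benjamini-Hochberg over 13129 genes, and the threshold was an adjusted p of 0.05. By this test all 10 genes differed between the ethanol groups, 8 higher and 2 lower in KMS11. Of all genes tested, 72% differed, with 35.6% higher and 36.4% lower. The median log2 fold change of the 10 genes, KMS11 against H929, was 1.61, against -0.02 over all genes. BIRC3 was higher by 8.15 ± 0.16 (log2, SE, adjusted p = 5.78e-10), or 284-fold, and TNFAIP3 by 3.55 ± 0.13 (adjusted p = 1.24e-08). The non-canonical pair was higher too, NFKB2 by 2.03 ± 0.24 (adjusted p = 3.88e-05) and RELB by 2.07 ± 0.21 (adjusted p = 1.15e-05). NFKBIE was higher by 2.5, NFKBIA by 1.19, TRAF3 by 1.0 and NFKB1 by 0.97. RELA had a log2 fold change of -0.91 ± 0.13 (adjusted p = 0.00017) and REL one of -0.81 ± 0.10 (edgeR adjusted p = 5.93e-05).

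All 10 calls were kept when any of the 8 libraries was left out. With the GC trend removed, RELB moved to 3.19, NFKB2 to 2.97 and NFKBIE to 3.33, while RELA moved to -0.42. On log2(TPM + 1), where the median of all genes lay at 0.315, REL had a difference of -0.13 (limma, adjusted p = 0.392), and its call was also lost on log2(TPM + 0.1). Line, culture history and any batch cannot be told apart in this comparison.

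Fluvastatin changed 5 of the 10 genes in H929, 4 of them higher and 1 lower. Of all genes, 42% changed in H929, with 22.7% higher and 19.3% lower, so the count of members lies near the background. The levels that follow are CPM, counts divided by the TMM-scaled library size, the scale of the test. BIRC3 stood at 2.14 and 2.16 CPM in ethanol and at 7.07 and 6.40 CPM in fluvastatin, a log2 fold change of 1.64 ± 0.17 (edgeR, adjusted p = 6.86e-05), or 3.12-fold. RELB stood at 7.45 and 5.0 CPM in ethanol and at 15.6 and 12.2 CPM in fluvastatin, a log2 fold change of 1.15 ± 0.21 (edgeR, adjusted p = 0.00185). Both treated libraries lay above both controls for each gene. Even so, BIRC3 in treated H929 remained at 0.67 and 0.71 TPM, the lowest of the 10 genes, and RELB at 3.83 and 3.09 TPM remained below its KMS11 levels.

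The inhibitor NFKBIA rose in H929 from 28.0 and 24.0 CPM to 43.9 and 36.4 CPM, a log2 fold change of 0.62 ± 0.12 (edgeR, adjusted p = 0.00291). It became the most abundant of the 10 genes in treated H929, at 16.8 and 13.6 TPM. TNFAIP3 rose from 8.51 and 6.72 CPM to 11.0 and 10.1 CPM, by 0.46 ± 0.13 (edgeR, adjusted p = 0.0189). TRAF3 was the member that fell, from 30.6 and 31.0 CPM to 24.5 and 23.9 CPM, with a log2 fold change of -0.35 ± 0.10 (edgeR, adjusted p = 0.0185). NFKBIE had 4.93 and 3.12 CPM in ethanol and 2.42 and 2.54 CPM in fluvastatin, a log2 fold change of -0.71 ± 0.29 that missed the threshold (edgeR, adjusted p = 0.0729). It passed with DESeq2 (-0.70, adjusted p = 0.0374), with no filter (-0.72, edgeR, adjusted p = 0.026), with the GC trend removed (-0.64, edgeR, adjusted p = 0.0118), and in 3 of 8 fits with 1 library left out. NFKB2, at 36.8 and 22.1 CPM against 48.2 and 32.9 CPM, had overlapping groups and a log2 fold change of 0.45 ± 0.24 (edgeR, adjusted p = 0.16). NFKB2 passed with the GC trend removed (0.52, edgeR, adjusted p = 0.00386) and without H929 ethanol replicate 1 (0.87, edgeR, adjusted p = 0.0202). NFKB1, REL and RELA had log2 fold changes of 0.09, -0.05 and -0.01, and REL passed at -0.26 with the GC trend removed (edgeR, adjusted p = 0.0158).

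The calls of BIRC3, RELB and NFKBIA in H929 were kept with any 1 of the 8 libraries left out. TNFAIP3 lost its call without H929 ethanol replicate 2 (0.31, adjusted p = 0.144) or H929 fluvastatin replicate 1 (0.40, adjusted p = 0.0998), and TRAF3 without any 1 of the 4 H929 libraries (adjusted p from 0.0652 to 0.101). On log2(TPM + 1), limma called RELB and NFKBIA, and BIRC3, whose low values that scale compresses, had 0.43 (adjusted p = 0.0744). Of the 4 T cell markers examined, summed TPM lay at 1.57 and 1.64 in H929 ethanol and at 3.42 and 4.25 in H929 fluvastatin, of which CD3E took 1.49 and 1.59 and then 2.92 and 3.54, with 1 marker at 0 in each group. Their part in the result was not tested.

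In KMS11, 1 of the 10 genes changed. REL stood at 35.1 and 30.8 CPM in ethanol and at 46.1 and 50 CPM in fluvastatin, a log2 fold change of 0.55 ± 0.10 (edgeR, adjusted p = 0.0225). Of all genes, 3.12% changed in KMS11, with 2.58% higher and 0.533% lower. That share was 0.471% without KMS11 ethanol replicate 1, 0.538% without ethanol replicate 2, 16% without fluvastatin replicate 2 and 11.5% with the GC trend removed. RELA stood at 24.6 and 24.7 CPM in ethanol and at 39.5 and 31.8 CPM in fluvastatin, with no overlap, and missed the threshold at 0.53 ± 0.13 (edgeR, adjusted p = 0.068). On the TPM scale REL stood at 3.77 and 3.17 and then at 4.65 and 5.08, and RELA at 8.58 and 8.13 and then at 11.1 in both libraries.

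The genes that rose in H929 had small log2 fold changes in KMS11. BIRC3 stood at 634 and 589 CPM in ethanol and at 533 and 661 CPM in fluvastatin, with overlapping groups and a log2 fold change of -0.03 ± 0.11. RELB stood at 27.2 and 25.4 CPM and then at 31.8 and 25.4 CPM, also with overlap (0.12 ± 0.19). NFKBIA stood at 57.1 and 61.7 CPM and then at 69.2 and 69.5 CPM, without overlap, at 0.22 ± 0.12 (edgeR, adjusted p = 0.297). TNFAIP3 had a log2 fold change of 0.08 ± 0.11, TRAF3 one of 0.09 ± 0.09 and NFKB1 one of 0.09 ± 0.09, all with an edgeR adjusted p over the threshold. NFKB2 stood at 121 CPM in both ethanol libraries and at 178 and 134 CPM in fluvastatin (0.37 ± 0.23, edgeR, adjusted p = 0.368), and the 178 is from the library that stood apart by GC trend.

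NFKBIE read differently by scale in KMS11. Its counts scaled to 22.6 and 23.4 CPM in ethanol and 27.7 and 17.8 CPM in fluvastatin, which overlap, but its TPM was 20.9 and 18.5 and then 15.3 and 14.1, which do not. The effective length that RSEM assigned to it was 755.0 and 812.6 bases in ethanol and 1049 and 804.5 bases in fluvastatin. The library with 1049 bases is the one that stood apart by GC trend. With that trend removed, NFKBIE had -0.41 (edgeR, adjusted p = 0.0476) and RELB -0.39 (edgeR, adjusted p = 0.0454) in KMS11, and RELA passed at 0.30 (edgeR, adjusted p = 0.023). Without that library REL held at 0.60 (adjusted p = 0.0226) and RELA had 0.36 (adjusted p = 0.274). REL lost its call without KMS11 ethanol replicate 1 (0.62, adjusted p = 0.154) or replicate 2 (0.42, adjusted p = 0.325), and under limma on log2(TPM + 1) (0.39, adjusted p = 0.137).

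**Figure D4:**
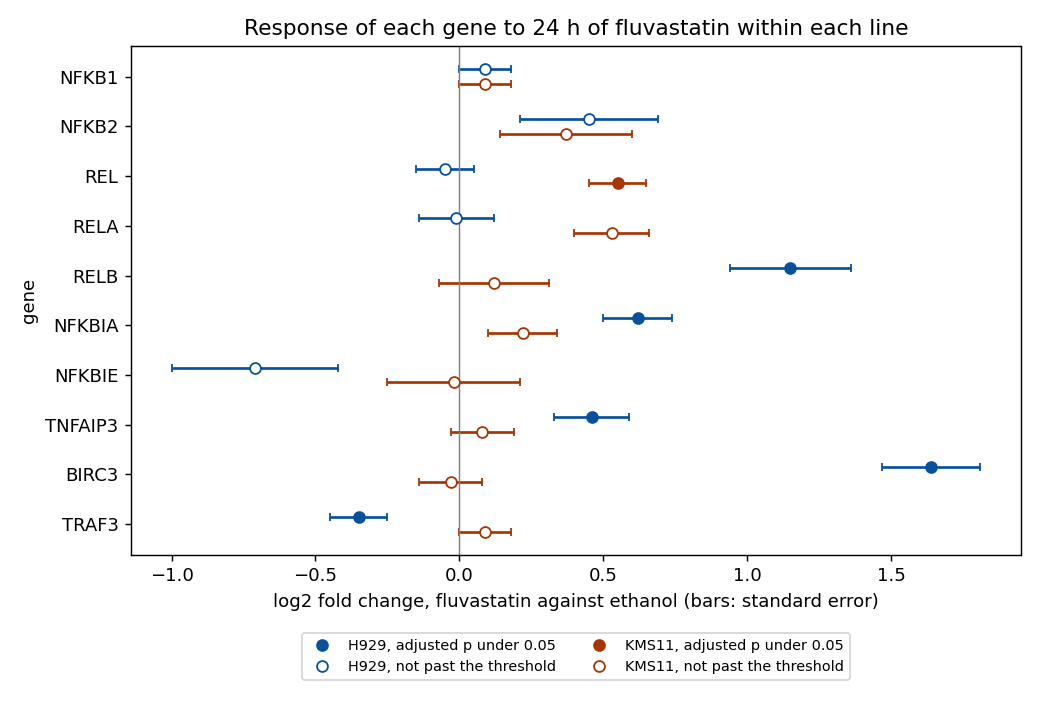
Log2 fold change of each gene after 24 h of fluvastatin (x axis, with standard error bars) in H929 (blue) and KMS11 (orange). Filled points passed an adjusted p of 0.05: BIRC3, RELB, NFKBIA and TNFAIP3 to the right and TRAF3 to the left in H929, and REL to the right in KMS11.

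Whether the responses differ was tested directly, as the response in KMS11 minus that in H929. Of the 10 genes, 4 differed, against 23.2% of all genes. BIRC3 had a difference of -1.68 ± 0.20 (edgeR, adjusted p = 0.000743) and RELB one of -1.03 ± 0.28 (edgeR, adjusted p = 0.0282), both more positive in H929. REL had a difference of 0.60 ± 0.15 (edgeR, adjusted p = 0.0166) and TRAF3 one of 0.44 ± 0.14 (edgeR, adjusted p = 0.0451), both more positive in KMS11. For NFKBIA (-0.40 ± 0.17, adjusted p = 0.12), TNFAIP3 (-0.38 ± 0.17, adjusted p = 0.139) and RELA (0.54 ± 0.19, adjusted p = 0.0649), edgeR gave no call. With the GC trend removed, NFKBIA (-0.41, adjusted p = 0.0262), RELA (0.30, adjusted p = 0.0416) and NFKB2 (-0.58, adjusted p = 0.0186, against -0.09 before) passed in edgeR, and TRAF3 did not. The call of TRAF3 was also lost with DESeq2, median-of-ratios scaling, no filter and limma on either TPM scale, and held in 4 of 10 other settings. BIRC3 kept its call without any 1 of the 8 libraries, whereas TRAF3 kept it in 1 of these 8 fits, RELB in 4 and REL in 5.

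Within a library, the ratio of RELB to RELA in TPM was 0.336 and 0.307 in treated H929, above the 0.151 and 0.115 of its controls, and 0.836 and 0.718 in treated KMS11, below the 1.05 and 0.999 of its controls. The ratio of NFKBIA to RELA was 0.831 and 0.909 in H929 ethanol and 1.47 and 1.34 in H929 fluvastatin, and 3.63 and 3.79 against 2.83 and 3.11 in KMS11. Neither set of ratios overlapped between treatments, and these ratios were not tested. NFKB2 to NFKB1 overlapped in H929, at 1.04 and 0.627 against 1.16 and 1.04, and in KMS11, at 1.98 and 2.22 against 2.46 and 2.15.

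Across both lines together, with the line as a term, 0 of the 10 genes passed edgeR's threshold, against 10.4% of all genes (6.5% higher and 3.93% lower). DESeq2 called 1, NFKBIA, against 19.9% of all genes called by DESeq2. RELB and NFKBIA were the 2 with an unadjusted p under 0.05 in edgeR. NFKBIA had a log2 fold change of 0.42 ± 0.12 (edgeR, adjusted p = 0.0544) and RELB one of 0.62 ± 0.24 (edgeR, adjusted p = 0.115). With the GC trend removed, NFKBIA and NFKBIE (-0.50, edgeR, adjusted p = 0.0275) passed. The median over the 10 genes was 0.26, with 8 of 10 positive, against 0.033 over all genes.

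Other genes of the pathway were taken as 6 lists of 85 genes, of which 67 were tested. In H929, 24 rose and 4 fell, beside 22.7% higher and 19.3% lower of all genes, so the total called lies near the background. The median log2 fold change was 0.31, against 0.022 over all genes. In KMS11, edgeR called 3 higher and 0 lower, beside 2.58% and 0.533% of all genes, with a median of 0.14 against 0.004. DESeq2 called 4 higher and 1 lower there, beside 8.35% of all genes called by DESeq2 (926, of which 657 were higher). In the edgeR fit 15 higher and 3 lower had an unadjusted p under 0.05. No share of all genes at an unadjusted p under 0.05 is given here, so such counts are a description. Across both lines edgeR called 9 higher and 0 lower, beside 6.5% and 3.93% of all genes. DESeq2 called 13 higher and 1 lower, beside 19.9% of all genes called by DESeq2 (2556, of which 1322 were higher). The edgeR fit had 1 lower at an unadjusted p under 0.05. The adaptors and ubiquitin enzymes, which carry signals from receptors to the kinases, had 9 of 18 higher and 2 lower in H929, and the other inhibitors and nuclear IkB proteins 5 of 9 higher and 1 lower, beside the same 22.7% and 19.3% of all genes. In the list of 10 kinases and their partner subunits, TAB3, a partner that activates the kinase MAP3K7, rose in H929. In KMS11 edgeR and DESeq2 called 0 genes of this list, with 2 and 1 at an unadjusted p under 0.05.

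TRAF1 and CD70 rose in both lines. TRAF1, a TRAF adaptor that is a known NF-kappaB target, went from 3.91 and 1.80 CPM to 9.09 and 8.82 CPM in H929, a log2 fold change of 1.63 ± 0.27 (edgeR, adjusted p = 0.000965). In KMS11 it went from 8.69 and 8.07 CPM to 42.5 and 42.4 CPM, a log2 fold change of 2.34 ± 0.24 (edgeR, adjusted p = 0.000666). CD70, the ligand of CD27, rose by 1.98 ± 0.34 in H929 (edgeR, adjusted p = 0.0013). That rise rests on few counts, 13 and 9 in H929 ethanol and 43 and 33 in H929 fluvastatin. In KMS11 CD70 rose by 2.03 ± 0.22 (edgeR, adjusted p = 0.000891), from 4.15 and 4.07 CPM to 19.4 and 14.2 CPM. Both kept their calls in both lines with any 1 library left out. TNIP2, which binds A20 and limits signaling, was the other gene to pass in KMS11, at 0.75 ± 0.16 (edgeR, adjusted p = 0.0363), and rose in H929 by 0.48 ± 0.16 (edgeR, adjusted p = 0.0392). Its call in KMS11 was lost without KMS11 ethanol replicate 1, ethanol replicate 2 or fluvastatin replicate 1.

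In H929 the adaptors TRAF5 (1.44 ± 0.19) and TRAF6 (1.13 ± 0.11) and the pattern receptor TLR4 (2.59 ± 0.35) rose, and so did NFKBIZ (1.15 ± 0.17), a nuclear IkB protein. IRAK1, the kinase of the interleukin-1 and Toll-like receptors, fell from 610 and 549 CPM to 256 and 210 CPM, a log2 fold change of -1.31 ± 0.15 (edgeR, adjusted p = 0.000115). TRAF2, the partner of TRAF3 in the ligase complex, had 27.8 and 23.5 CPM in ethanol and 13.7 and 12.1 CPM in fluvastatin, and fell with a log2 fold change of -1.0 ± 0.23 (edgeR, adjusted p = 0.00592). TRAF2 and TRAF3 thus both fell in H929 while the ligases BIRC2 (0.55 ± 0.12) and BIRC3 rose. The fall of TRAF3 (-0.35) was not called by limma on either TPM scale. Of all genes, 42% were called in H929, so these mixed directions are a description. The kinase MAP3K14 stood at 6.33 and 5.24 CPM in H929 ethanol and at 8.12 and 6.73 CPM in H929 fluvastatin, and was not called in either line.

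Among the 25 other targets, of which 17 were tested, edgeR and DESeq2 each called 7 higher and 0 lower in H929, with 0 lower at an unadjusted p under 0.05. Of all genes, 42% were called in H929 (22.7% higher). The median was 0.86, or 0.37 with the genes at 0 set at the bound that 3 counts per library allow. IL2RG, the common gamma chain of cytokine receptors, had 12 and 5 counts in H929 ethanol and 57 in both H929 fluvastatin libraries (2.92 ± 0.29, edgeR, adjusted p = 5.19e-05). In KMS11 it had 13734 and 15290 counts in ethanol. PLEK, pleckstrin, had 7 and 12 counts in H929 ethanol and 29 and 26 in H929 fluvastatin, and 141 in both KMS11 ethanol libraries. In KMS11, edgeR called 0 of the 17, and DESeq2 1 higher and 1 lower, beside 3.12% and 8.35% of all genes. In the edgeR fit 2 higher and 1 lower had an unadjusted p under 0.05.

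**Figure D5:**
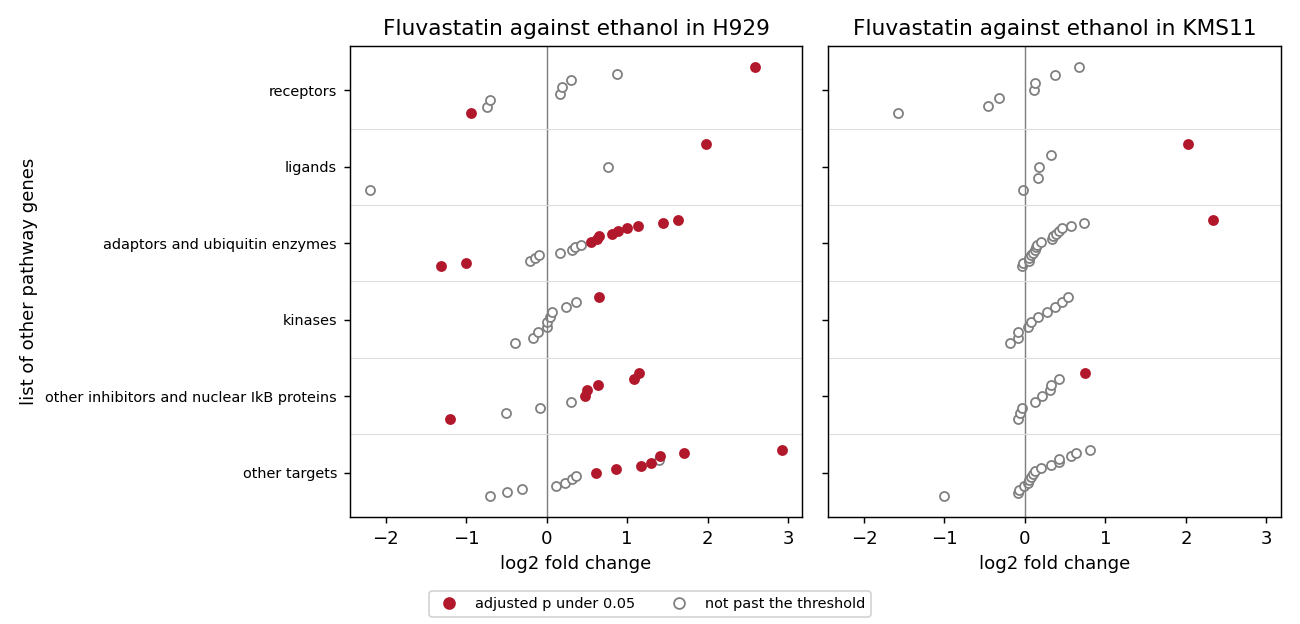
Log2 fold change after fluvastatin (x axis) of the other pathway genes by list (rows) in H929 (left, 63 genes) and KMS11 (right, 65 genes), with genes past an adjusted p of 0.05 in red and genes with a compared group at 0 counts left out. Red points lie in all 6 lists in H929, and in KMS11 they are CD70, TRAF1 and TNIP2.

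Between the ethanol groups, edgeR called 35 of the 67 genes higher and 19 lower in KMS11, beside 35.6% and 36.4% of all genes. Limma on log2(TPM + 1) called 41 higher and 10 lower. Of all 13129 genes, that fit called 69.5%, or 9121, of which 6644 were higher. Genes with 0 or few counts in H929 ethanol, LTB, TNFSF14, CD74, CXCL10 and TNFRSF13B among them, passed the filter through their KMS11 levels, so their direction was fixed by it and the count over the lists is a description. LTB, which encodes lymphotoxin beta, had 0 counts in both H929 ethanol libraries and 2511 and 2114 in those of KMS11, at least 555-fold higher by a floor of 3 counts per library. CD74, the invariant chain, had 0 counts in H929 ethanol and 38816 and 34752 in KMS11 ethanol (at least 8840-fold), and the chemokine CXCL10 had 0 against 620 and 416 (at least 124-fold). BCL2A1, a BCL2 relative and known target, ran the other way, with 58 and 40 counts in H929 ethanol and 0 in both of KMS11. It had 0 counts in treated KMS11 too and passed the filter through its H929 levels, so its direction was also fixed. TNFRSF13B (TACI), a receptor for the plasma cell survival factors BAFF and APRIL, had 2 and 0 counts in H929 ethanol and 411 and 425 in KMS11 ethanol. IKBKE, an IkB kinase relative, was higher in KMS11 by 3.27 ± 0.18 (edgeR, adjusted p = 2.06e-07), whereas the scaffold IKBKG, which shares sequence with a near-identical pseudogene, had -2.04 ± 0.24 (edgeR, adjusted p = 3.27e-05).

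For 9 of the members, the gene with the most similar pattern is given, found as the highest Pearson r of log2 CPM over the 8 libraries, among the 8861 genes whose mean log2 CPM reached 3. For BIRC3 it was LY75, a C-type lectin receptor (r = 0.9995), for TNFAIP3 L3MBTL4 (r = 0.9991), for TRAF3 the receptor kinase TYRO3 (r = 0.9991) and for NFKB1 the cadherin CELSR1 (r = 0.9988). For NFKB2 it was UBE4B (r = 0.995), for RELA PCIF1 (r = 0.9945), for NFKBIA the receptor chain IL10RB (r = 0.9944) and for RELB CCDC69 (r = 0.9906). REL had the lowest best match, IRGQ (r = 0.9645). The 8 points are 4 groups of 2 and the gap between the lines dominates most of them, so these values describe likeness only.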

How the data were processed

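RNA was measured in 8 libraries of H929 and KMS11 cells (2 lines, 2 treatments, 2 replicates), grouped by the sample labels. The authors prepared stranded libraries after depletion of ribosomal RNA, aligned reads to hg38 with STAR 2.5.2b and quantified genes with RSEM 1.3.0. The deposited expected counts are unnormalized, and the deposited TPM and FPKM values are scaled by RSEM for effective length and library total. FPKM repeats TPM on another scale and was not used. The 10 members and all lists were chosen with earlier results of these data known, so no count over them is independent support.

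Gene symbols, positions and biotypes came from GENCODE 44, which holds 57392 of the 58219 identifiers. All 10 members and 84 of the 85 other pathway genes were matched. Expected counts were rounded, and the 19683 protein-coding genes were analysed in R 4.3.3 with edgeR 4.0.16: filterByExpr (minimum count 10, minimum total count 15), TMM, and the quasi-likelihood F test, with p values over 13129 genes adjusted by Benjamini-Hochberg and a threshold of 0.05. The fit across both lines had terms for line and treatment, and the other comparisons used contrasts of the 4 group means. SE was taken as the absolute log2 fold change over the square root of F. The steps were tested on simulated data. Alternatives were DESeq2 1.42.0, limma 3.58.1 on log2(TPM + 1) and log2(TPM + 0.1), other scalings and filters, all annotated genes, a GC trend offset (GC of the longest transcript), a replicate block, omission of single libraries, a threshold of 0.01 and no line term. Totals ranged from 26702515 to 41910446 counts, and replicates differed beyond counting error in every group (chi-square per degree of freedom 9.92 to 37.7).

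Named were the 10 members, MAP3K14 and BIRC2, the 2 called genes with the largest change per list and comparison, and the gene most like each member, of which 1 is not reported here. BCL2A1, WAKMAR2 and the marker genes and motif matches given by name stand outside this rule, and BCL2A1 was chosen after its values were seen. Promoter windows are those given for RefSeq starts.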

Additional observations from a re-analysis of the deposited data

Results flagged for a closer look

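Each gene here was marked because the test of the difference itself, the response in KMS11 minus that in H929, passed an adjusted p of 0.05 (edgeR). Among the members these were BIRC3 (-1.68), RELB (-1.03), REL (0.60) and TRAF3 (0.44). BIRC3 and RELB rose in H929 and had 0.12 or less in KMS11, where both start far higher. REL rose in KMS11 and had -0.05 in H929, and TRAF3 fell in H929 and had 0.09 in KMS11. The call of BIRC3 was kept in all 8 fits with 1 library left out, that of REL in 5, that of RELB in 4 and that of TRAF3 in 1. TRAF3 was past the threshold in 4 of 10 other settings.

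Among the other pathway genes, the receptor TNFRSF1B (1.31) went from 66.9 and 61.1 CPM to 35.0 and 31.8 CPM in H929, and from 46.9 and 45.1 CPM to 69.7 and 49.4 CPM in KMS11. The adaptor TRAF2 (1.57), the kinase IRAK1 (1.70) and the inhibitor NFKBID (1.34) also had more positive responses in KMS11. The differences of TLR4 (-1.91), TAB3 (-0.58), NFKBIZ (-1.21), PLEK (-1.60) and IL2RG (-2.89) were more positive in H929. TNFRSF1B, IRAK1, TRAF2, NFKBIZ and IL2RG kept their calls in all 8 fits with 1 library left out, and TLR4 in 5. TAB3, NFKBID and PLEK kept theirs in 2 of 8.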

How the results depend on the processing

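Of the 10 calls between the ethanol groups, none was lost with a library left out, and limma on either TPM scale gave 9. Counts of members past the threshold moved as follows. Across both lines (0), DESeq2 gave 1 and GC trend removal 2. In H929 (5), DESeq2 and no filter gave 6, limma on log2(TPM + 1) gave 2, on log2(TPM + 0.1) 3, GC trend removal 8 and an adjusted p under 0.01 gave 3, with 3 to 6 when a library was left out. In KMS11 (1), DESeq2, no filter and the replicate block gave 2, limma on either TPM scale and an adjusted p under 0.01 gave 0, GC trend removal gave 4, and leaving out a library gave 0 to 2. For the difference (4), DESeq2 and median-of-ratios scaling gave 3, GC trend removal gave 6, limma gave 0 on log2(TPM + 1) and 2 on log2(TPM + 0.1), an adjusted p under 0.01 gave 1, and leaving out a library gave 1 to 6. The share of all genes called moved too. Across both lines (10.4%) it was 1.42% to 2.75% without any 1 H929 library, 5.24% without KMS11 ethanol replicate 2, 19.9% with DESeq2, 23.2% with GC trend removal and 1.2% with the replicate block. For the difference (23.2%) it was 9.78% and 12.2% without KMS11 ethanol replicates 1 and 2, 14.3% and 13.1% when H929 ethanol replicate 1 or, in turn, fluvastatin replicate 2 of that line was omitted, and 35.6% with GC trend removal, which gave 56.2% in H929 (42%).

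Same-numbered libraries deviated together in H929 (r = 0.774) but not in KMS11 (r = -0.078, 5560 genes), so the numbers were not taken as pairs. With the replicate block, 7 members were called in H929, NFKB2 (0.48, edgeR, adjusted p = 0.00633) and NFKBIE (-0.68, edgeR, adjusted p = 0.0468) in addition. That fit called 2 in KMS11 (RELA in addition), 6 for the difference (RELA and NFKBIA in addition) and 0 across both lines. Of all genes it called 48.9% in H929, 12.5% in KMS11, 32.2% for the difference and 1.2% across both lines. Without the block these shares were 42%, 3.12%, 23.2% and 10.4%. The block takes in line and number, so no such fit exists between the lines.

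Signs turned for values that had no call before the change of setting. Some lay near 0, but not NFKB2 in KMS11 (0.37), the difference of NFKBIE (0.69) or BIRC3 across both lines (0.63). RELB in KMS11 turned from 0.12 to -0.39 with the GC trend removed and passed the threshold there (edgeR, adjusted p = 0.0454). RELA in H929 had 0.0016 with DESeq2 and with median-of-ratios scaling, 0.01 with a minimum count of 50 and with the GC trend removed, and -0.12 to 0.11 without single libraries. NFKB1 had -0.02 in each line and across both on the TPM scales and -0.13 in H929 with the GC trend removed. Its difference (0.00) became -0.04 with DESeq2 and median-of-ratios scaling, -0.01 with a minimum count of 50, -0.0023 and -0.001 on the TPM scales and -0.06 to -0.01 without single libraries. In KMS11, GC trend removal gave NFKB2 -0.06, RELB -0.39, BIRC3 0.07 and TRAF3 -0.05. TNFAIP3 there had -0.14 and -0.15 on the TPM scales, and NFKBIE 0.0036 with library size scaling. Without single libraries NFKBIE there ran from -0.38 to 0.22, RELB from -0.06 to 0.23 and BIRC3 from -0.24 to 0.11. The difference of NFKBIE was -0.09 on log2(TPM + 1), that of NFKB2 -0.50 to 0.23 without single libraries, and BIRC3 across both lines had -0.02 with no line term. The cause was not tested.

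BIRC3 in H929 rests on 54 to 161 counts a library.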

Other observations

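The kappaB consensus was also counted over the other pathway genes. In the 250 bases before a RefSeq start it matched in 4 of the 8 ligand genes with a window (LTA, LTB, TNFSF13 and TNFSF14), in 4 of 9 other inhibitors and nuclear IkB proteins (NFKBIB, NFKBID, NFKBIZ and TNIP1) and in 9 of 21 other targets, against 6.28% of all 27305 genes with a window. It matched in 0 of 10 receptor genes, 0 of 9 genes of the kinase list and 1 of 15 genes of adaptors and ubiquitin enzymes, CYLD. The list of targets was chosen for known regulation by NF-kappaB, so its share is a description. TRAF1, which rose in both lines, held no match to these letters in the windows given.

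REL shares its locus with a lncRNA on the same strand that had at most 50 counts in a library, beside at least 1126 for REL.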
